A study of Rattus norvegicus with 12 samples.

Results

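Rat cardiac progenitor cells plated for 2 h on laminin were set against the same cells plated for 2 h on dishes without coating, which comprised 6 of the 12 RNA-seq libraries of the study. The 6 libraries were chosen by their labelled group alone, 3 laminin and 3 no coating, and were paired by replicate number, which equals a batch in the labels (B1, B2 and B3). The study also held 3 fibronectin libraries, which entered the same statistical model, and 3 libraries of cells in suspension, which did not. All plated cells were seeded at low density, so that cells did not touch, with 0.1% fetal bovine serum. Before plating, every group had been grown in F12 medium with 10% fetal bovine serum, leukemia inhibitory factor, basic fibroblast growth factor, erythropoietin and glutathione. The line derives from a single clone, so replicates stand for batches of 1 line rather than for animals. With batch as a term, p-values measure only how far differences between the 3 plated groups varied from batch to batch. The question was how alike the transcriptomes on these surfaces were, which sizes of difference could be excluded, and which small shifts came back in every batch.

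Laminin is a basement membrane protein that cells bind through integrins containing the alpha subunits Itga3, Itga6 or Itga7 and through dystroglycan (Dag1). Fibronectin, an interstitial matrix protein, is bound mainly through integrins containing Itga5 or Itgav. Uncoated culture plastic presents no added ligand, and cells attach to it through proteins adsorbed from serum or secreted by the cells themselves. Attachment and spreading are known to act on YAP and TAZ, transcriptional co-activators of the Hippo pathway, and on immediate early genes downstream of integrin and growth factor signalling. The series title names YAP and the Polo-like kinase Plk2.

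The 6 libraries held between 15875160 counts (no coating 2) and 20852160 counts (laminin 2). The mesenchymal gene Vim averaged 5422 ± 277 CPM (counts scaled to library size, TMM-corrected) on laminin and 5102 ± 203 CPM without coating (SD, n = 3 each), and the cardiac transcription factor Gata4 85.9 ± 10.4 CPM on laminin and 89.5 ± 6.56 CPM without coating. No read was counted in these libraries for the cardiomyocyte genes Nkx2-5, Myh6 and Myh7, where a count of 0 allows up to 3 over the 6 libraries, and Tnnt2 was the 1 cardiomyocyte marker with enough counts to be tested. Expression of Kit, the receptor commonly used to isolate such progenitors, was 2.91 ± 0.464 CPM on laminin and 2.88 ± 0.486 CPM without coating. Isl1, also a progenitor marker, had 0 counts, and the mesenchymal marker Thy1 had 8 counts. Of the blood cell markers the leukocyte gene Ptprc had 3 counts in all, whereas Cd14 averaged 56.4 ± 2.27 CPM on laminin and 49.9 ± 2.59 CPM without coating, Laptm5 2.78 ± 0.453 CPM on laminin and 3.12 ± 0.722 CPM without coating, and Cd68 0.733 ± 0.142 CPM on laminin and 1.18 ± 0.182 CPM without coating. Among endothelial and smooth muscle markers Pecam1 had 35 counts, Cdh5 4 and Cnn1 15, while Flt1 averaged 128 ± 18.8 CPM on laminin and 129.9 ± 18.5 CPM without coating, and Tagln 208 ± 18.4 CPM on laminin and 196 ± 9.49 CPM without coating. Ribosomal RNA took between 0.448% and 1.38% of the counts in the laminin libraries, against 1.85% to 3.06% in the no coating libraries, and its share was lower on laminin in each batch. Replicate 3 stood apart: libraries of the same group lay 0.17 to 0.18 apart between batches 1 and 2 and 0.28 to 0.52 apart between batch 3 and the others, as the root mean square log2 ratio defined next.

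By root mean square, laminin and no coating were the most alike of the 3 plated groups within each batch. The distance between a pair of libraries was taken as the root mean square of the log2 ratio of TMM-scaled CPM over 5555 well-measured genes, those with a mean of at least 5 log2 CPM. Laminin and no coating lay 0.11, 0.14 and 0.13 apart in batches 1, 2 and 3. In the same batches laminin lay 0.14, 0.16 and 0.20 from fibronectin, and fibronectin lay 0.13, 0.14 and 0.27 from no coating. By the median absolute log2 ratio over the same genes, batch 1 had another order. There fibronectin and no coating were closest at 0.065, against 0.068 for laminin and no coating. In batches 2 and 3 laminin and no coating were closest by this measure too, at 0.068 and 0.059. These distances share libraries, and their order was not tested. Counting error alone gives 0.054 to 0.058 for the laminin and no coating pairs, and laminin libraries of different batches lay 0.18 to 0.43 apart.

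**Figure D1:**
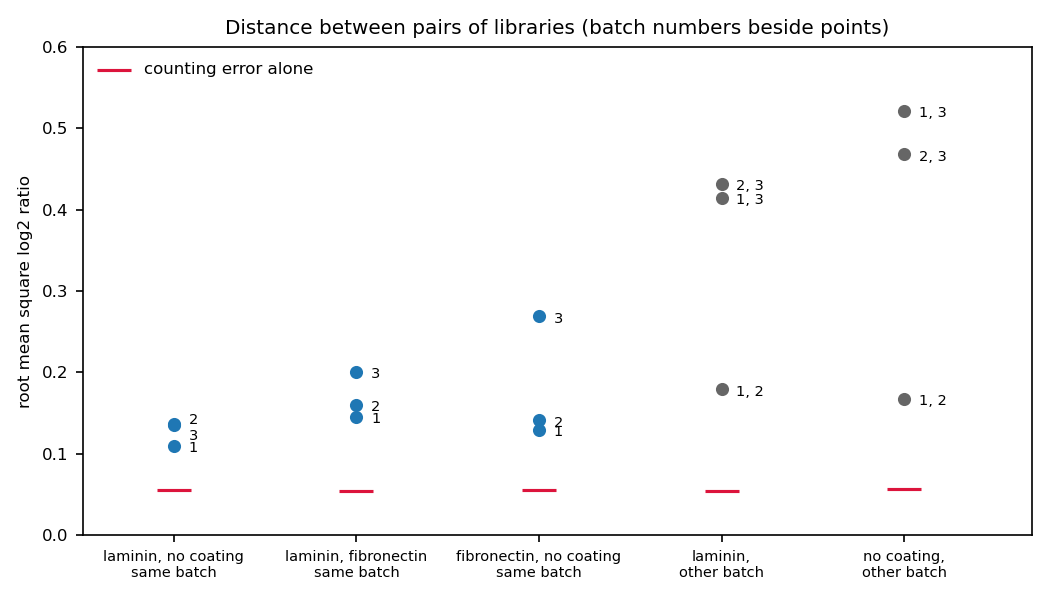
Root mean square log2 ratio over 5555 well-measured genes (y axis) for pairs of libraries, with the batch numbers beside each point and red bars for counting error alone. The 3 laminin and no coating pairs lie between 0.11 and 0.14, and libraries of a single group lie up to 0.52 apart when batch 3 is one of the pair.

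Most of the transcriptome was held within narrow margins. For each gene a 95% interval of the log2 fold change, laminin over no coating, was taken from edgeR's quasi-likelihood fit with batch as a term. Among the well-measured genes, 5526 of 5555 (99.5%) had an interval wholly within 1.5-fold and 5104 (91.9%) within 0.32 on the log2 scale, a level 25% higher or its inverse. Within 2-fold lay 5551 (99.9%). The same shares within 25% and within 1.5-fold were 86.3% and 99.1% for laminin against fibronectin and 83.5% and 98.2% for fibronectin against no coating. The median well-measured gene had a half-width of 0.13 on the log2 scale, a factor of 1.09, and differences above 1.14-fold lay outside its interval. For 99% of these genes the interval ended below 1.45-fold. Over all 9975 tested genes, 7055 (70.7%) lay within 25%, 8957 (89.8%) within 1.5-fold and 9671 (97%) within 2-fold. An equivalence test by 2 one-sided tests on the same fit, Benjamini-Hochberg adjusted over all tested genes, passed for 7428 genes (74.5%) at 25%, for 9150 (91.7%) at 1.5-fold and for 9779 (98%) at 2-fold. Intervals were wider at low counts: of the 804 genes with a mean under 1 log2 CPM, 9.08% lay within 1.5-fold, and the intervals of the rest reached beyond that size.

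**Figure D2:**
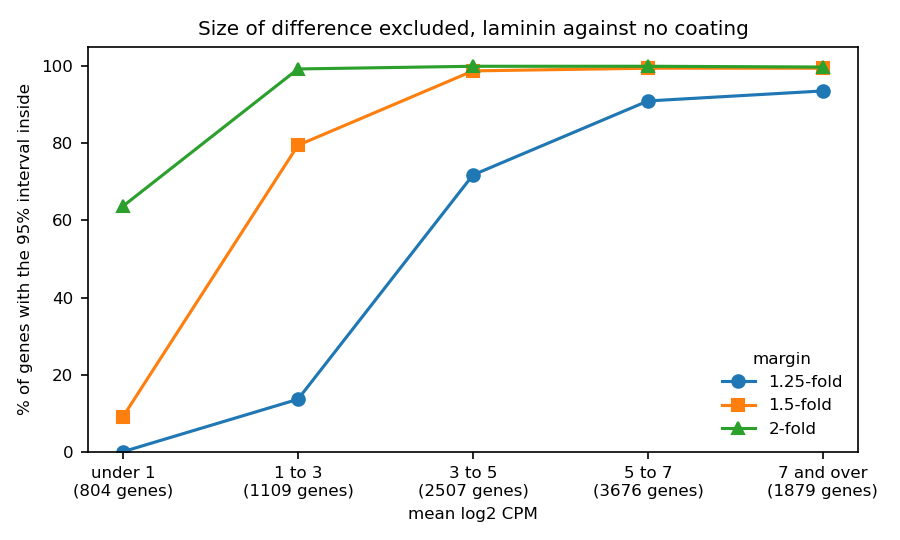
Percent of genes (y axis) whose 95% interval for laminin over no coating lies inside a margin of 25%, 1.5-fold or 2-fold, by mean log2 CPM (x axis, with the number of genes). The share inside 25% is 0% under 1 log2 CPM and 93.6% from 7 log2 CPM upwards.

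The most abundant messages illustrate the margins. Actb, cytoplasmic actin, stood at 4420, 5033 and 5282 CPM on laminin in batches 1, 2 and 3, against 4488, 5116 and 5306 CPM without coating, and the difference was -0.017 ± 0.040 on the log2 scale. The 2 libraries of each batch nearly coincided. Flna, the actin cross-linker filamin A, had a difference of -0.066 ± 0.053 and Vim of 0.087 ± 0.040. Fn1, the gene of fibronectin itself, was at 4416, 3941 and 4935 CPM on laminin in batches 1, 2 and 3, against 5480, 5092 and 5210 CPM without coating, with the laminin libraries all below the others and a difference of -0.25 ± 0.069 that did not pass (edgeR quasi-likelihood, Benjamini-Hochberg adjusted p = 0.473). Of the 29 well-measured genes whose interval reached beyond 1.5-fold, 20 were higher and 9 lower on laminin, 16 had the same direction in all 3 batches, and 3 were ribosomal RNA genes. Over all well-measured genes, 2127 of 5555 had the same direction in all 3 batches. Some intervals reached that far by width and included 0, as for Matr3 (-0.15 to 0.75) and Hmox1 (-0.74 to 0.014). The counts by direction are therefore no result in themselves.

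At the Benjamini-Hochberg threshold of 0.05, 0 of 9975 genes (0%) differed between laminin and no coating by edgeR quasi-likelihood. Without adjustment 735 genes (7.37%) had a p under 0.05, 236 higher (2.37%) and 499 lower (5%) on laminin. In the same model 225 genes (2.26%) passed for laminin against fibronectin and 191 (1.91%) for fibronectin against no coating, comparisons that share libraries with this one. The smallest adjusted p was 0.0512 (edgeR), so the count of 0 lies at the edge of the threshold. This value was shared by Rn28s and Ccng2. With ribosomal RNA genes left out before scaling, the smallest adjusted p was 0.126 (edgeR). DESeq2 called 17 genes, limma-voom 4 (Rn5-8s, Rn28s, Rn45s and Ccng2), and edgeR on the laminin and no coating libraries alone called 3. Without the batch term edgeR called 0, with 141 at an unadjusted p under 0.05. Leaving out batch 3 gave 140 calls, described further on.

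**Figure D3:**
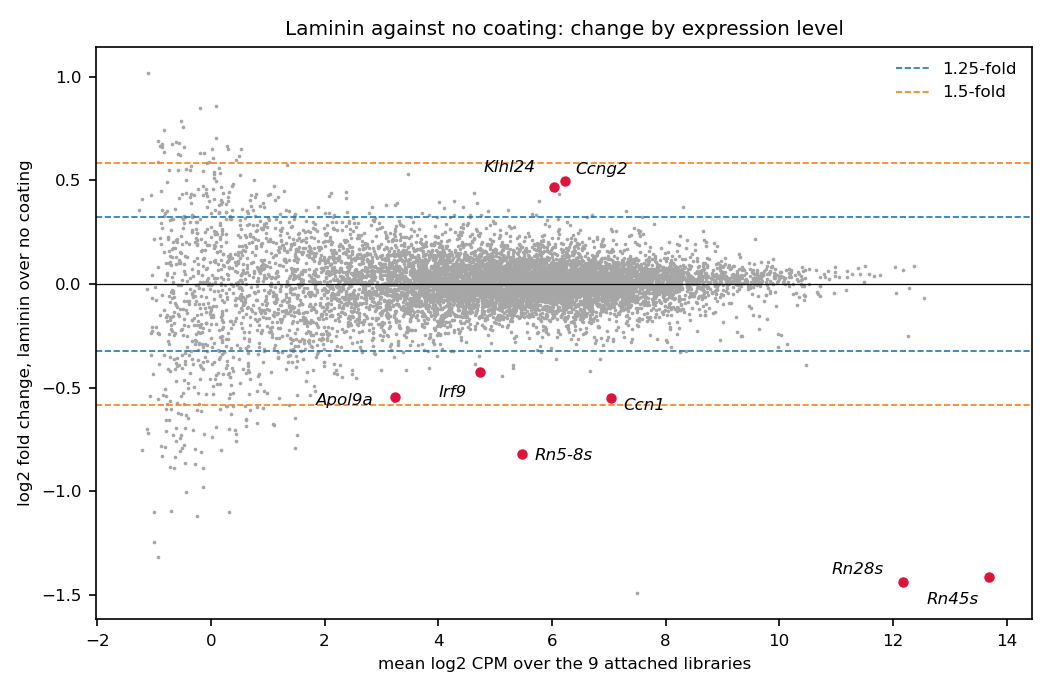
Log2 fold change, laminin over no coating (y axis), against mean log2 CPM over the 9 plated libraries (x axis), with dashed lines at 25% and at 1.5-fold and named genes in red. Above 5 log2 CPM most points lie inside the inner lines, and the 3 ribosomal RNA genes lie at -1.44 (Rn28s), -1.41 (Rn45s) and -0.82 (Rn5-8s).

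The shifts nearest to passing on the higher side were small and came back in each batch. Ccng2 (Entrez 29157), cyclin G2, an atypical cyclin linked to cell cycle exit, stood at 97.7, 76.6 and 82.8 CPM on laminin in batches 1, 2 and 3, against 64.6, 57.7 and 59.1 CPM without coating. Every laminin library lay above every uncoated one, as in 1.22% of all tested genes, where 3.97% did not overlap in either direction. The difference was 0.50 ± 0.061 on the log2 scale (edgeR quasi-likelihood, Benjamini-Hochberg adjusted p = 0.0512; DESeq2 adjusted p = 4.13e-06). Klhl24 (303803), a Kelch-domain adaptor of a ubiquitin ligase, was at 103, 75.1 and 46.2 CPM on laminin in batches 1, 2 and 3, against 80.5, 47.2 and 35.2 CPM without coating. Its groups overlapped and levels differed between batches, but each pair showed the same direction, with a difference of 0.47 ± 0.088 (edgeR, adjusted p = 0.248; DESeq2 adjusted p = 0.00281). Pnrc1 (286988), a nuclear receptor coactivator, was at 68.1, 53.8 and 68.8 CPM on laminin in batches 1, 2 and 3, against 47.5, 40 and 57.2 CPM without coating, a difference of 0.40 ± 0.064 (edgeR, adjusted p = 0.169; DESeq2 adjusted p = 0.00533). The transcriptional repressor gene Hbp1 (27080) had 213, 179 and 138 CPM on laminin in batches 1, 2 and 3, against 168, 129 and 118 CPM without coating, a difference of 0.35 ± 0.075 (edgeR, adjusted p = 0.347; DESeq2 adjusted p = 0.0261).

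Genes of autophagy stood among the same shifts named by rank of p. Gabarapl1 (689161), an ATG8-family protein of autophagosomes, was at 89, 81.2 and 92.9 CPM on laminin in batches 1, 2 and 3, against 75.6, 61.4 and 79.9 CPM without coating, and Atg14 (305831), a subunit of the lipid kinase complex that starts autophagosome formation, at 31.6, 30.1 and 31.8 CPM on laminin in batches 1, 2 and 3, against 26.5, 24.4 and 26.6 CPM without coating. In both, all laminin libraries lay above all uncoated ones, and the differences were 0.29 ± 0.061 and 0.27 ± 0.061 on the log2 scale (edgeR, adjusted p = 0.347 and 0.365). Ndrg1, a stress-responsive gene, had a difference of 0.23 ± 0.042, Tgif1, a co-repressor of TGF-beta signalling, of 0.22 ± 0.046, Ppm1d, a phosphatase that dampens p53 signalling, of 0.23 ± 0.055, and Tcp11l2 of 0.33 ± 0.069. None of these passed by edgeR, and Ndrg1 passed by DESeq2 (adjusted p = 0.0457; edgeR, adjusted p of the 4 between 0.207 and 0.413). Autophagy genes were no list of this comparison, and the grouping was seen after the values.

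On the lower side stood the ribosomal RNA genes, beside the unnamed Entrez entry 310926 at -1.49 ± 0.30. Rn45s (24723), the ribosomal RNA precursor, stood at 10670, 3174 and 8968 CPM on laminin in batches 1, 2 and 3, against 23350, 13810 and 18000 CPM without coating, and Rn28s (100861535) at 3133, 1273 and 3118 CPM on laminin in batches 1, 2 and 3, against 7705, 4913 and 6620 CPM without coating. Both lay lower in every laminin library than in any uncoated one, as in 2.75% of all tested genes. The differences were -1.41 ± 0.18 and -1.44 ± 0.16 on the log2 scale, and -0.82 ± 0.11 for Rn5-8s (edgeR, adjusted p = 0.0673, 0.0512 and 0.0743). By DESeq2 the adjusted p was 9.82e-06 for Rn28s and 2.83e-08 for Rn5-8s, which passed. Rn45s was not among the genes that DESeq2 called. The 28S and 5.8S sequences are parts of the 45S precursor, so these entries may share reads and are not independent. Kits of this type include a step that depletes ribosomal RNA, and its part in this result was not tested. With these genes left out before scaling, edgeR still called 0 genes.

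Irf9 (305896), the DNA-binding subunit of the interferon-activated factor ISGF3, was at 25.4, 22.4 and 23.6 CPM on laminin in batches 1, 2 and 3, against 35.2, 29 and 31.6 CPM without coating, a difference of -0.42 ± 0.061 (edgeR, adjusted p = 0.0842). Apol9a averaged 8.39 ± 0.68 CPM on laminin and 12.2 ± 0.986 CPM without coating (SD, n = 3 each), a difference of -0.54 ± 0.10 (edgeR, adjusted p = 0.207). In both genes the laminin libraries lay wholly below the uncoated ones. Fibronectin was also below no coating for them, at -0.38 ± 0.061 for Irf9 and -0.62 ± 0.10 for Apol9a, and these passed (edgeR, adjusted p = 0.00988 and 0.00865). Both genes were chosen by their p for laminin against no coating. The same no coating libraries enter the fibronectin test, so it is not independent support. Tnfrsf12a (302965), the receptor of the cytokine TWEAK, was at 246, 265 and 284 CPM on laminin in batches 1, 2 and 3, against 303, 344 and 352 CPM without coating, a difference of -0.33 ± 0.054 (edgeR, adjusted p = 0.174; DESeq2 adjusted p = 0.00248). Per2, a repressor of the circadian clock, had a difference of -0.40 ± 0.067, the sialyltransferase gene St3gal4 of -0.27 ± 0.049, the AP-1 subunit gene Fosl1 of -0.27 ± 0.048 and Cit, citron kinase of cytokinesis, of -0.39 ± 0.071 (edgeR, adjusted p between 0.174 and 0.207). By DESeq2 Per2 (adjusted p = 0.0315), St3gal4 and Cit (both 0.0499) passed.

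**Figure D4:**
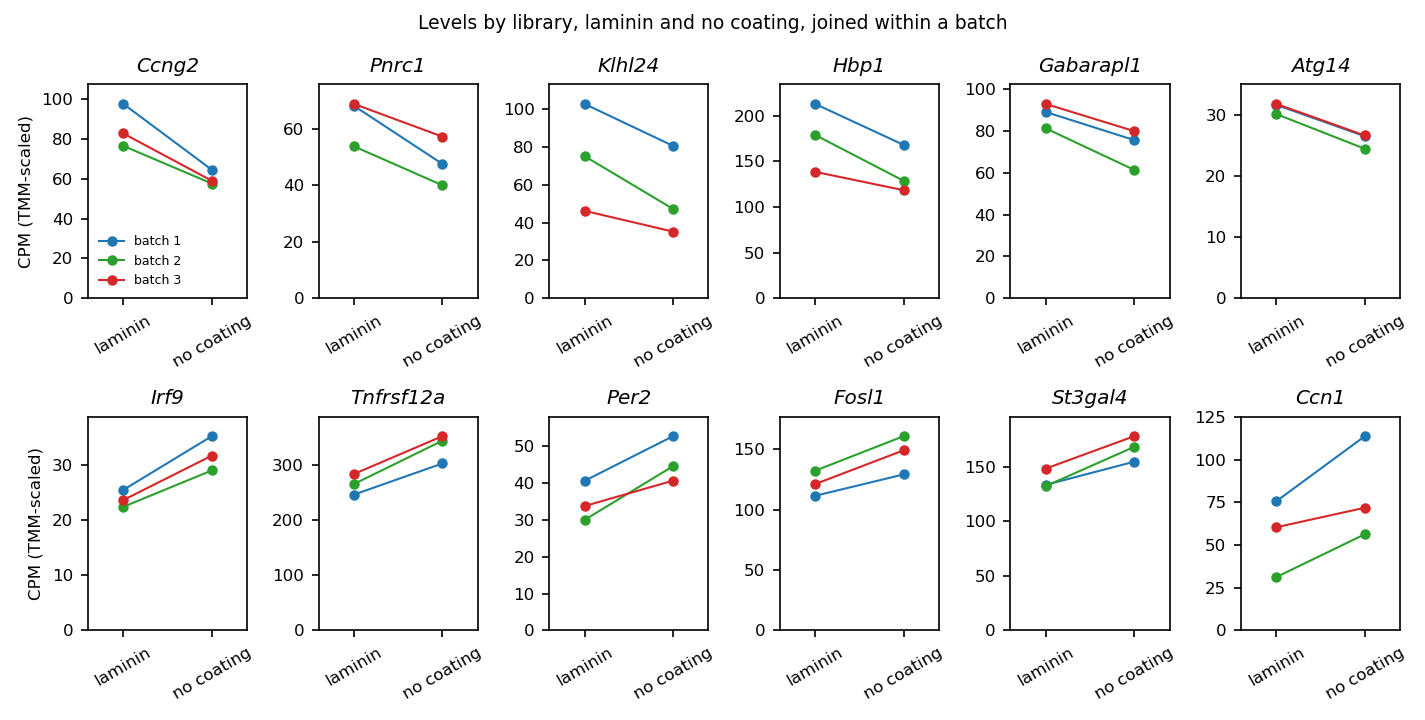
TMM-scaled CPM (y axis from 0) of 12 genes on laminin and without coating, with a line joining the libraries of a batch. Lines fall towards no coating in the upper row and climb towards it in the lower row in all 3 batches. The groups overlap in Pnrc1, Klhl24, Hbp1, Fosl1 and Ccn1. In several genes, Klhl24, Hbp1 and Ccn1 among them, the spread between batches exceeds the difference between surfaces.

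Counted by sign alone, 3499 of 9975 genes (35.1%) shifted the same way in all 3 batches, 1851 higher (18.6%) and 1648 lower (16.5%) on laminin. Shifts of at least 1.1-fold in each batch numbered 358 (3.59%), 129 higher (1.29%) and 229 lower (2.3%). At 25% or more in each batch 57 genes remained (0.571%), 14 higher (0.14%) and 43 lower (0.431%), and at 1.5-fold 9 (0.0902%). Among well-measured genes, 71 of 5555 (1.28%) shifted by at least 1.1-fold in each batch, 28 higher (0.504%) and 43 lower (0.774%). Of the 57, 7 were well measured (0.126% of such genes), named here because they are few: Ccng2 and Klhl24 on the higher side, and Kdm6b, Rn28s, Rn45s, Rn5-8s and the unnamed Entrez entry 310926 on the lower side. Across the 5555 well-measured genes, which are not independent replicates, the log2 ratios of batches 1 and 2 had a Pearson correlation of 0.468, those of batches 2 and 3 of 0.465 and those of batches 1 and 3 of 0.0443, with no library shared between the ratios of different batches.

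Because batch 3 stood apart, the comparison was repeated with batches 1 and 2 alone, and 140 of 9953 tested genes then passed (edgeR quasi-likelihood, Benjamini-Hochberg). Of the 9953, 14 passed as higher and 126 as lower on laminin, the counts beside which list members that fell in this fit stand. Batch 3 took no part in that choice, and 130 of the 140 (92.9%) had the same direction in it, all 14 higher genes and 116 of the 126 lower ones, against 57.1% of all 9953 genes tested. In batch 3 the lower genes had a median log2 ratio of -0.10 and the higher genes of 0.22. The corresponding medians of -0.31 and 0.36 in batches 1 and 2 are those the genes were chosen on, so the sizes cannot be compared. At least 1.1-fold in the same direction in batch 3 was found for 50 of the 140. The share of all 9953 tested genes at that size was not counted, so nothing is read from this number. Leaving out batch 1 instead gave 16 calls, 12 higher and 4 lower on laminin, so the balance of directions was the other way. Of these 8 (50%, against 58.4% of all tested) had the same direction in batch 1, 4 of the 12 higher genes and 4 of the 4 lower ones, and the higher genes had a median ratio of -0.077 there. Leaving out batch 2 gave 1 call, which had the same direction in batch 2. Leaving out the single library no coating 1 gave 28 calls, 22 of them higher.

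**Figure D5:**
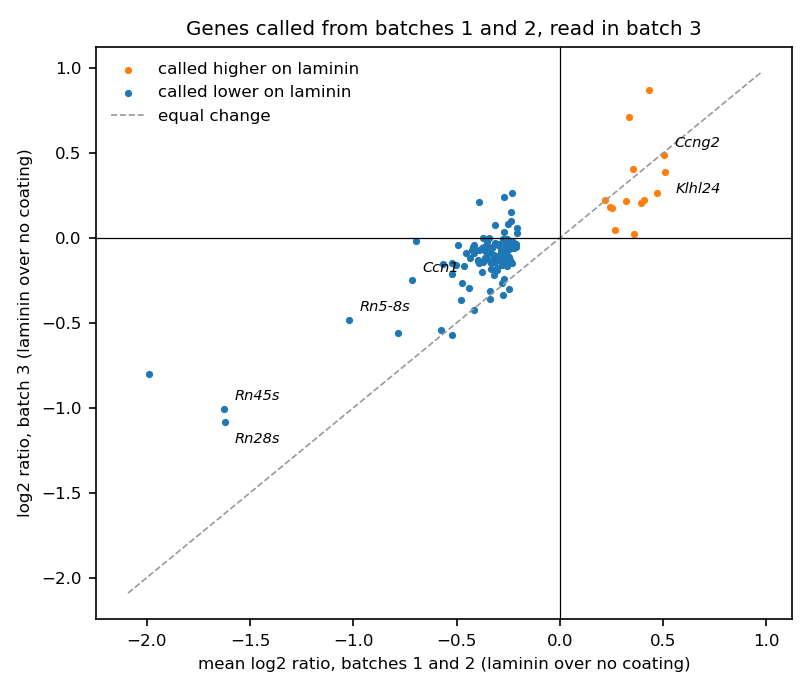
Log2 ratio of laminin over no coating in batch 3 (y axis) against the mean of batches 1 and 2 (x axis) for the 140 genes called from batches 1 and 2. Of these, 130 lie in the same direction in batch 3, and the dashed line marks equal ratios, from which no comparison of size follows because the x axis chose the genes.

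The genes with the smallest adjusted p in batches 1 and 2, picked by that rank after the values were seen, are given after setting aside ribosomal RNA, entry 310926 and the higher gene Ccng2. Lrp1, an endocytic receptor, had a difference of -0.52 ± 0.052 on the log2 scale, the transcriptional co-regulator Spen of -0.56 ± 0.060, the laminin chain gene Lama5 of -0.45 ± 0.056, the collagen gene Col1a1 of -0.42 ± 0.053 and the atypical cadherin Fat1 of -0.40 ± 0.051 (edgeR, adjusted p between 7.07e-08 and 9.57e-06). In batch 3 the ratios of these 5 genes were -0.15, -0.15, -0.086, -0.052 and -0.13. The 14 higher genes included Ccng2, Klhl24, Hbp1, Pnrc1, Gabarapl1, Ndrg1, Tcp11l2, Tgif1, Rb1cc1, which encodes a scaffold of autophagy initiation, and Bmf, a pro-apoptotic Bcl2-family gene. The lower genes had a median genomic span of 53.4 kb, the higher ones of 18 kb and all tested genes of 23.1 kb in the RefSeq table of assembly GRCr8, which is a span and not a transcript length. The median level was 6.93 log2 CPM for the lower genes and 5.32 for all tested genes. The part of gene size, level and ribosomal RNA share in this result was not tested.

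Among YAP and TAZ targets none of the 17 tested passed (edgeR), 5 were lower and 2 higher in all 3 batches, and their median difference was -0.038 on the log2 scale, beside 0.0072 over all tested genes. Of all tested genes 16.5% were lower and 18.6% higher in all 3 batches, the shares beside which the counts of every list stand. With a library or batch left out the median ran from -0.085 without replicate 3 to -0.0077 without laminin 2. Ccn2, a matricellular target, averaged 93.4 ± 22.5 CPM on laminin, 384 ± 98 on fibronectin and 86.4 ± 14.1 without coating (SD, n = 3 each). The difference of Ccn2, laminin over no coating, was 0.10 ± 0.079 (edgeR, adjusted p = 0.836), with batch ratios of 0.19, -0.14 and 0.24, whereas laminin against fibronectin was -2.04 ± 0.077 (edgeR, adjusted p = 7.54e-07). Amotl2, an angiomotin-family regulator of YAP, had a difference of -0.12 ± 0.056 and Ajuba, a LIM-domain protein, of -0.038 ± 0.079 on laminin over no coating (edgeR, adjusted p = 0.712 and 0.938), against -1.43 ± 0.055 and -1.42 ± 0.075 on laminin over fibronectin (edgeR, adjusted p = 7.54e-07 and 9.66e-06). The last test is also that of the difference between the responses to laminin and to fibronectin relative to no coating.

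Ccn1 (83476), the other matricellular target, was at 75.7, 31.3 and 60.4 CPM on laminin in batches 1, 2 and 3, against 114, 56.3 and 71.8 CPM without coating. Levels overlapped between the groups, but laminin was the lower one in each batch. The difference was -0.55 ± 0.13 (edgeR, adjusted p = 0.395; DESeq2 adjusted p = 0.00248), and -0.70 ± 0.094 in batches 1 and 2 alone, where it passed (edgeR, adjusted p = 1.98e-05). Lats2, a Hippo kinase gene that YAP induces, was at 91, 84.8 and 93.8 CPM on laminin in batches 1, 2 and 3, against 106, 112 and 103 CPM without coating, a difference of -0.25 ± 0.056 (edgeR, adjusted p = 0.356). It also passed in batches 1 and 2 alone, at -0.31 ± 0.061 (edgeR, adjusted p = 0.00309). Ankrd1, a stress-responsive nuclear co-factor, was at 1.04, 0.907 and 0.615 CPM on laminin in batches 1, 2 and 3, against 0.546, 0.51 and 0.877 CPM without coating, and its direction differed between batches. Of the other targets, Fjx1 had a difference of 0.15 ± 0.055, Nuak2 of 0.21 ± 0.13, Crim1 of -0.13 ± 0.049 and Ptpn14 of -0.12 ± 0.080, and F3, Gadd45b, Axl, Myof, Asap1, Nt5e and Tgfb2 lay between -0.085 and 0.031.

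Yap1 (363014) stood at 53.4, 58 and 57.3 CPM on laminin in batches 1, 2 and 3, against 56.9, 60.1 and 57.4 CPM without coating. The libraries overlapped, and the difference of Yap1 was -0.048 ± 0.055 with a 95% interval from -0.17 to 0.074 on the log2 scale. Its paralogue Wwtr1, which encodes TAZ, had a difference of 0.072 ± 0.055. Over the 15 Hippo pathway core and TEAD genes the median was -0.048, and 7 were lower and 0 higher in all 3 batches. With a library or batch left out the median ran from -0.14 without no coating 3 to -0.024 without replicate 2, and it was -0.13 without replicate 3. None passed by edgeR, Fat1 passed by DESeq2 (adjusted p = 0.0457), and Fat1 and Fat4, atypical cadherins upstream of the pathway, fell in the fit without batch 3. The batch 3 ratios of Fat1 and Fat4 were -0.13 and -0.069. Plk2 (83722) was at 17.8, 15.4 and 14.7 CPM on laminin in batches 1, 2 and 3, against 15.6, 15.1 and 13.6 CPM without coating, with laminin higher in each batch and a difference of 0.11 ± 0.079 whose interval ran from -0.066 to 0.28 (edgeR, adjusted p = 0.815). On fibronectin Plk2 averaged 53.1 ± 4.15 CPM, and laminin against fibronectin was -1.74 ± 0.070 (edgeR, adjusted p = 7.54e-07). Plk1, Plk3 and Plk4 had a difference of -0.094 ± 0.047, -0.10 ± 0.091 and 0.11 ± 0.10 on laminin over no coating, and none passed (edgeR, adjusted p between 0.72 and 0.864).

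No receptor for laminin passed. Itgb1, the common beta subunit, averaged 2512 ± 509 CPM on laminin and 2428 ± 503 CPM without coating (SD, n = 3 each), Itga6 213 ± 16.1 CPM on laminin and 216 ± 26.1 CPM without coating, and Dag1 739.6 ± 50.3 CPM on laminin and 746 ± 21.5 CPM without coating. Intervals of the log2 fold change ran from -0.10 to 0.20 for Itgb1, -0.13 to 0.10 for Itga6, -0.12 to 0.091 for Dag1 and -0.21 to 0.069 for Itga7, and Itgb4 was measured less precisely at -0.21 to 0.39. Of 19 integrin and laminin receptor genes tested, 0 passed and 15 had intervals within 25%, and Itga3 was not among the tested genes. Itga5, the alpha subunit of the main fibronectin receptor, had the smallest p of the list, with batch ratios of -0.17, -0.15 and -0.13 and a difference of -0.15 ± 0.055 (edgeR, adjusted p = 0.607). All 24 focal adhesion genes had intervals within 25%, beside 70.7% of all tested genes, which include less abundant ones, and 91.9% of well-measured genes. Of the 24, 6 were lower and 0 higher in all 3 batches, beside 16.5% and 18.6% of all tested genes. Their median was -0.034, and it ran from -0.059 without laminin 3 to -0.0073 without laminin 1. Among these the scaffold gene Bcar1 had a difference of -0.14 ± 0.048, the tensin gene Tns3 of -0.12 ± 0.043, the integrin activator Tln1 of -0.15 ± 0.058 and Zyx of -0.11 ± 0.049. Tln1 fell in the fit without batch 3, and its batch 3 ratio was -0.038.

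No matrix gene passed. Of 11 laminin and basement membrane genes tested, 7 were lower and 0 higher in all 3 batches, with a median of -0.11 on the log2 scale that ran from -0.18 without laminin 3 to -0.069 without laminin 1. Lama5, a laminin alpha chain, was at 242, 250.1 and 403 CPM on laminin in batches 1, 2 and 3, against 311, 364 and 428 CPM without coating, with batch ratios of -0.37, -0.54 and -0.086 and a difference of -0.32 ± 0.10 (edgeR, adjusted p = 0.536). Lamc1, the common gamma chain, had a difference of -0.11 ± 0.050, the collagen IV gene Col4a1 of -0.13 ± 0.064 and Col15a1 of -0.47 ± 0.14. Of 17 interstitial matrix genes 7 were lower and 2 higher in all 3 batches. Col1a1, at 1016, 824 and 1170 CPM on laminin in batches 1, 2 and 3, against 1269, 1178 and 1212 CPM without coating, had batch ratios of -0.32, -0.52 and -0.052, so the difference seen in batches 1 and 2 was small in batch 3. Col1a1, Col5a1 and Fn1 fell in the fit without batch 3, as did Lama5. The batch 3 ratios of Col5a1 and Fn1 were -0.11 and -0.078. Among 16 protease and inhibitor genes, Mmp14, a membrane-bound metalloprotease, had a difference of -0.15 ± 0.043 and Plat, tissue plasminogen activator, of 0.10 ± 0.041.

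Immediate early genes were the list with the most members at an unadjusted p under 0.05, 9 lower and 2 higher of 22, where all tested genes had 5% lower and 2.37% higher. None passed after adjustment, 9 were lower and 4 higher in all 3 batches, and the median was -0.081 on the log2 scale. With a library or batch left out it ran from -0.12 without replicate 3 to -0.021 without replicate 1, and it was -0.023 without no coating 1. Egr1, a growth factor-induced zinc finger gene, was at 19.1, 12.3 and 14.8 CPM on laminin in batches 1, 2 and 3, against 27.6, 15.7 and 16 CPM without coating, a difference of -0.35 ± 0.10 (edgeR, adjusted p = 0.492). Fosl1 was at 112, 132 and 121 CPM on laminin in batches 1, 2 and 3, against 129, 161 and 149 CPM without coating, and each pair had the lower value on laminin. Zfp36, a destabilizer of AU-rich messages, had a difference of -0.20 ± 0.057 and Btg2, an antiproliferative gene, of -0.26 ± 0.084. Klf4, a transcription factor gene chosen after its values were seen as a member in the opposite direction, had a difference of 0.18 ± 0.060. Fos, the AP-1 subunit gene chosen here because it passed without batch 3, was at 2.71, 2.82 and 3.36 CPM on laminin in batches 1, 2 and 3, against 4.75, 4.34 and 3.39 CPM without coating, nearly equal in batch 3. In the fit without batch 3 Egr1, Fos and Fosl1 fell. ERK feedback and output genes had 5 of 17 lower and 2 higher in all 3 batches, with Dusp7, an ERK phosphatase gene, at -0.21 ± 0.046 and the ephrin receptor gene Epha2 at -0.29 ± 0.067, both of which fell in the fit without batch 3. The batch 3 ratios of Dusp7 and Epha2 were -0.11 and -0.14. Of the growth factor and receptor genes, Lif, a cytokine also present in the growth medium as protein, had batch ratios of -0.36, -0.31 and -0.58 and a difference of -0.41 ± 0.10 (edgeR, adjusted p = 0.424).

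No Notch pathway gene passed. Notch2 was at 218, 223 and 288 CPM on laminin in batches 1, 2 and 3, against 281, 307 and 306 CPM without coating, a difference of -0.30 ± 0.076 (edgeR, adjusted p = 0.455). Notch1 had a difference of -0.26 ± 0.076, Notch3 of -0.30 ± 0.10 and the ligand gene Jag1 of -0.18 ± 0.056, each lower in all 3 batches. Over the 11 Notch pathway genes the median was -0.13, and it ran from -0.18 without no coating 2 to 0.027 without laminin 2. Notch1 and Notch2 fell in the fit without batch 3. Their batch 3 ratios were small, at -0.072 and -0.087, against -0.33 and -0.37 in batch 1 and -0.40 and -0.46 in batch 2.

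No cell cycle or housekeeping gene passed. Of 26 G1/S and replication genes, 13 were higher and 3 lower in all 3 batches, with a median of 0.050 that ran from 0.020 without no coating 3 to 0.072 without no coating 2, and 0 passed. The replication helicase gene Mcm3 had a difference of 0.078 ± 0.043 and the transcription factor gene E2f1 of 0.10 ± 0.055, and 24 of the 26 had intervals within 25%. Ccne1, cyclin E1, had the smallest p of the list and went the other way, with batch ratios of -0.12, -0.21 and -0.10. Its difference was -0.14 ± 0.057 (edgeR, adjusted p = 0.641), and no other member had an unadjusted p under 0.05. Ccne2, cyclin E2, had batch ratios of -0.065, 0.48 and 0.73, so its sign in batch 1 was opposite to that in the others. Of the 21 G2/M genes 8 were lower and 3 higher in all 3 batches. Intervals lay within 25% for 73 of 77 cytosolic ribosomal protein genes, for 71 of 72 nuclear oxidative phosphorylation genes and for 34 of 37 proteasome genes, beside 70.7% of all tested genes, which include less abundant ones. In the proteasome list 9 of 37 were higher and 0 lower in all 3 batches, beside 18.6% and 16.5% of all tested genes. No member of these lists passed, nor did any member of the other lists by edgeR, among them cholesterol synthesis (21 tested, 20 within 25%), heat shock genes (12 tested, 10 within 25%), the unfolded protein and integrated stress response (24 tested, 19 within 25%), hypoxia and glycolysis (21 tested, 17 within 25%) and p53 targets (14 tested, 9 within 25%).

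The comparisons with fibronectin, in the same model, had more calls and share the laminin or the no coating libraries with this one. Of the 225 genes that passed for laminin against fibronectin, 45 were higher (0.451%) and 180 lower (1.8%) on laminin, and of the 191 for fibronectin against no coating, 141 were higher (1.41%) and 50 lower (0.501%) on fibronectin. Without adjustment 1361 genes (13.6%) and 1455 genes (14.6%) had a p under 0.05 in these comparisons. Ccn1 averaged 55.8 ± 22.6 CPM on laminin, 569 ± 114 on fibronectin and 80.6 ± 29.7 without coating (SD, n = 3 each), and Nuak2, a YAP-induced kinase gene, 4.66 ± 0.242 CPM on laminin, 12.5 ± 1.36 on fibronectin and 4.05 ± 0.325 without coating (SD, n = 3 each). St3gal4 passed in both of those comparisons, at 0.40 ± 0.049 for laminin over fibronectin and -0.67 ± 0.049 for fibronectin over no coating (edgeR, adjusted p = 0.00251 and 7.9e-05), so laminin lay between the other surfaces. For Ccng2 and Klhl24, fibronectin was above no coating at 0.45 ± 0.061 and 0.59 ± 0.088, which passed (edgeR, adjusted p = 0.00412 and 0.00723), and laminin against fibronectin was 0.047 ± 0.060 and -0.12 ± 0.086, which did not (edgeR, adjusted p = 0.754 and 0.57). Tnfrsf12a was lower on laminin than on fibronectin, at -0.30 ± 0.054 (edgeR, adjusted p = 0.0188), and fibronectin over no coating was -0.024 ± 0.054. Ribosomal RNA was also lower on laminin than on fibronectin, with Rn28s at -1.52 ± 0.16 (edgeR, adjusted p = 0.00118). St3gal4, Ccng2, Klhl24, Tnfrsf12a and Rn28s were named by their p for laminin against no coating. The fibronectin comparisons reuse those libraries, so they give no independent support.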

How the data were processed

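Each library has a deposited file of whole-number read counts by Entrez identifier, per the file headers. Per the labels' protocols, RNA was taken up in TRIzol and made into TruSeq Stranded Total RNA LT libraries. The submitters' processing notes name the build rn4. Aligner, counting tool, annotation and strand setting were not given in the sources used here. Genes that overlap on opposite strands, or that have near-identical copies, are therefore uncertain. Of 16924 identifiers, 16761 matched a symbol in the RefSeq table of GRCr8, and the rest held 0.328% to 0.355% of the counts of a library compared here.

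The 9 plated libraries entered edgeR 4.0.16 in R 4.3.3 (glmQLFit, glmQLFTest, TMM scaling, filterByExpr, which kept 9975 genes), with terms for group and batch (residual degrees of freedom 4, biological coefficient of variation 0.0582). P-values were Benjamini-Hochberg adjusted over all tested genes at 0.05. A difference is a log2 fold change ± SE, a batch ratio is the log2 ratio of CPM within a batch after adding a prior count of 2, and intervals use the moderated quasi-dispersion. DESeq2 1.42.0 and limma 3.58.1 (voom) served as alternatives, and the script was tested on simulated data.

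The labels give each replicate number a batch shared by the groups, and the file headers give each batch a code of its own, so the numbers pair the libraries. Deviations from group means correlated at 0.682 to 0.859 in the 3 same-batch pairs of laminin and no coating, across genes. The gene lists, 41 in number, and the comparison itself were chosen with earlier results of these data known. Genes were named by a fixed rule: as under 10 passed, the 10 smallest p per direction with the same direction in every batch, then the 6 most abundant genes, the 5 well-measured genes with the widest intervals, Yap1, Wwtr1, the Polo-like kinases, YAP and TAZ targets, laminin-binding receptors and the 4 smallest p of each list described. Genes named in the fit without batch 3 were picked after their values were seen. 1 gene that the rule covers is not reported here.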

Additional observations from a re-analysis of the deposited data

How the results depend on the processing

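Calls for laminin against no coating numbered 0 to 140 over the alternatives, and leaving out batch 3 moved them most. By edgeR, 0 genes were called without the replicate block (9 or all 12 libraries), with the block in all 12 libraries, with DESeq2 size factors, with robust empirical Bayes and without ribosomal RNA genes, an alternative added after seeing the data. The 2 groups alone with the block gave 3, library size only 2, no filter on low counts 4, DESeq2 17 and limma-voom 4, the last added after seeing the data. Leaving out replicates gave 0 to 140: 16 without replicate 1, 1 without replicate 2, 140 without replicate 3, 2 without laminin 3, 28 without no coating 1, 4 without no coating 3 and 0 without each other library. Well-measured genes within 1.5-fold numbered 1870 of 1879 when at least 7 log2 CPM was asked, and 4735 of 5555 without the block. With replicates left out they ran from 5455 of 5553 (without no coating 1) to 5608 of 5623 (without replicate 3). Genes shifted the same way in all batches numbered 2127 of 5555 among the well measured and 358 of 9975 at 1.1-fold or more in each batch. Laminin against fibronectin had 17 calls without the block, 41 with the block in 12 libraries, 15 in 12 libraries without it, and 28 to 494 with replicates left out (28 without replicate 2, 494 without replicate 3). Fibronectin against no coating had 17, 47 and 18 under those settings, 73 with its 2 groups alone, and 42 to 979 with replicates left out (42 without replicate 2, 979 without replicate 1). The cause of these moves was not tested. The median of all genes was 0.0072 as reported, 0.015 with DESeq2 size factors and 0.023 with library size only. Library size only changed the sign of some list medians near 0, such as interstitial matrix genes (-0.011 as reported, 0.0048 with it). Of 3502 values of 187 named genes under the alternatives 3375 kept direction and side of the threshold, 78 came past it and 49, of 16 genes that did not pass, changed sign. With replicates left out these ran from -0.028 to 0.0010 for Actb, -0.049 to 0.49 for Kif18a, -0.061 to 0.016 for Dag1, -0.055 to 0.014 for Itga6, -0.0020 to 0.11 for Itgb1, -0.047 to 0.13 for F3, -0.059 to 0.21 for Itgb4, -0.15 to 0.056 for Gadd45b, -0.020 to 0.24 for Plk4, -0.058 to 0.0076 for Asap1, -0.11 to 0.093 for Nt5e, -0.085 to 0.010 for Tgfb2, -0.10 to 0.083 for Ajuba, -0.018 to 0.15 for Dhcr7, -0.19 to 0.10 for Tnnt2, -0.13 to 0.15 for Kit. Library size only gave 0.0012 for Dag1, 0.00040 for Itga6, 0.0073 for Nt5e. Medians near 0 of several lists changed sign, among them integrins (-0.002 without no coating 3) and TGF-beta targets (-0.013 without replicate 2).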

Other observations

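Some well-measured genes had higher ratios in batches 2 and 3 than in batch 1. Of the 20 genes whose interval reached beyond 1.5-fold on the higher side, 15 had a ratio under 1.1-fold in size in batch 1. The median absolute log2 ratio of all well-measured genes was 0.068 in batch 1, itself under 1.1-fold. Batches that disagree also widen an interval, so the 15 are no result about these genes. Smc4, a condensin subunit gene, was at 425, 596 and 192 CPM on laminin in batches 1, 2 and 3, against 455, 406 and 115 CPM without coating. Septin7, a cytoskeletal GTPase gene, was at 240.3, 344 and 110.2 CPM on laminin in batches 1, 2 and 3, against 249.8, 249.9 and 70.9 CPM without coating, and Kif20b, a mitotic kinesin gene, at 90.4, 124 and 39.6 CPM on laminin in batches 1, 2 and 3, against 98.7, 88.1 and 24.7 CPM without coating. In all 3 genes both batch 3 libraries lay far below those of batches 1 and 2. After entry 310926, the widest intervals among well-measured genes were those of Matr3, a nuclear matrix protein gene, with batch ratios of -0.10, 0.33 and 0.88, Sh3bgrl1 with -0.021, 0.30 and 0.60 and Kif18a, a mitotic kinesin gene, with -0.28, 0.27 and 0.83. These genes were picked after their values were seen, and none passed.

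Hmox1, heme oxygenase, was far lower on laminin in batch 3 but not in the others, with 98.9, 164 and 98.6 CPM on laminin in batches 1, 2 and 3, against 106, 164 and 188 CPM without coating, and batch ratios of -0.095, -0.0082 and -0.93. Entrez entry 310926, which matched no symbol, was at 202, 23.2 and 126 CPM on laminin in batches 1, 2 and 3, against 410.4, 181 and 219 CPM without coating, a difference of -1.49 ± 0.30 that did not pass (edgeR, adjusted p = 0.306). Its batch ratios were -1.02, -2.96 and -0.80.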
